A study of Mus musculus with 3 samples.

Results

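The fibroblast growth factors (FGFs) followed here are Fgf1, Fgf2, Fgf7, Fgf8, Fgf9, Fgf10, Fgf12, Fgf13, Fgf18 and Fgf20, which are 10 of the 27745 gene names that the array lists. All gene probes that carry one of these names were taken, 16 probes in all, so that 5 ligands had 1 probe and 5 had several. Kidney rudiments of mouse embryos were compared at E12.5, the stage at which the first nephrons begin to form. On each of 3 arrays read in 2 colours, RNA of Fgfrl1-/- rudiments on the C57BL/6 strain was labelled with Cy3 and RNA of C57BL/6 wildtype littermates with Cy5. Each RNA came from 6 to 9 pooled rudiments. The 3 array numbers are those of the labels, and with 0 dye swaps the dye and the genotype cannot be told apart. Both genotypes were whole rudiments, so that in these bulk samples fewer cells of a type and less RNA per cell cannot be told apart either.

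Most FGFs are secreted proteins that bind tyrosine kinase receptors together with heparan sulfate, and the receptors then switch on the MAP kinase pathway, its ETS transcription factors and a set of feedback inhibitors. Fgfrl1, the gene deleted in the mutant, encodes a related receptor that binds FGFs but has no tyrosine kinase domain. In the kidney, Fgf8 is made by the cells that form the renal vesicle, the first epithelial stage of the nephron, and is needed for nephron formation. Fgf9 is made by the ureteric bud and Fgf20 by the cap mesenchyme, and together they keep nephron progenitors alive and undifferentiated. Fgf7 and Fgf10 come from mesenchymal cells and act on epithelia through a splice form of Fgfr2. Fgf12 and Fgf13 differ from the others: they are Fgf homologous factors, which stay inside the cell and bind sodium channels rather than acting as secreted ligands.

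Array 1 lay on another slide than arrays 2 and 3 and was read with an earlier software version. The log2 ratios of all probes correlated with r = 0.71 between arrays 2 and 3, but with r = 0.11 and 0.22 between array 1 and each of them. Fgfrl1 itself had log2 ratios of -1.21, -1.51 and -1.83 (mean -1.52 ± 0.31, SD, n = 3; adjusted p = 0.0332 by limma), so that it was lower in the Fgfrl1-/- channel on every array, although the sources used here do not say whether its probe lies in the deleted part. All ratios below are log2 of Fgfrl1-/- over wildtype after normexp background correction with an offset of 50, which pulls the ratios of dim spots towards 0, and loess. The adjusted p-values are those of limma over all 41174 probes.

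The array measures each ligand through probes of 60 bases. Sequences are given for some of the probes that read through without a stop codon. These are the second probe of Fgf8, which is compared below with the brighter one, and the dimmer probe of Fgf12. Sequences are also given for Fgf20, which spread between arrays, and for Fgf7 and Fgf2, which were near background. Whether the choice of probe affected the values of these ligands was not tested. The sequences run 5′ to 3′, as listed for the array, and the capitals mark the whole codons of 1 reading frame with no stop codon. Every ligand probe had at least 1 such frame. Of the probes shown, those of Fgf2 and Fgf20 had 3 and those of Fgf7 and Fgf12 had 2. No annotation of mm8 was used, so the capitals do not show that the marked frame is the coding one.
Fgf8, second probe: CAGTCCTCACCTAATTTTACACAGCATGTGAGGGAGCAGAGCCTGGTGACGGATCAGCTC
Fgf20: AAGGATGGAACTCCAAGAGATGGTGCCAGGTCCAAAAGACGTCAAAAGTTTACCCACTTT
Fgf12, second probe: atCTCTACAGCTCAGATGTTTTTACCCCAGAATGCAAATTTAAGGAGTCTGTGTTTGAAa
Fgf7: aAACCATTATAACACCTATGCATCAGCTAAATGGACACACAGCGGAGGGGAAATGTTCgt
Fgf2: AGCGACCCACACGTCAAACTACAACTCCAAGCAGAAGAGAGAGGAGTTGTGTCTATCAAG
On mm8, the mouse build named in the files, the Fgf8 probe lies at chr19:45794922-45794981 on the minus strand, with 53.3% G and C. The Fgf20 probe lies at chr8:41778643-41778702 on the minus strand, with 45.0% G and C. The Fgf7 probe lies at chr2:125780852-125780911 on the plus strand, with 43.3% G and C. The Fgf12 probe is placed at chr16:28104820-28288159 on the minus strand and the Fgf2 probe at chr3:37540561-37587780 on the plus strand, spans far longer than 60 bases, so that each joins at least 2 blocks of the genome.

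Of the 10 ligands, 7 stood well above background with both dyes on every array, namely Fgf8, Fgf9, Fgf10, Fgf12, Fgf13, Fgf18 and Fgf20. A ligand was counted if any of its probes met this mark. Of all 16 ligand probes, 8 did, beside 55.4% of all probes. Fgf1 and Fgf7 were well above background in some channels, and both probes of Fgf2 in none. The scanner's flag behind this count compares a spot with its background, and a probe that fails it has only an unreliable level, not an absent transcript. With the scanner's less strict flag, for a signal significantly over background, the count was 9 ligands.

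Fgf8 and Fgf9 were lower in the Fgfrl1-/- rudiments, and none of the other 8 ligands passed the test. The 2 called probes, both lower, stand beside 0.398% of all probes called lower, 0.289% called higher and 0.687% called in either direction. The brightest probes of 5 ligands were lower on all 3 arrays (19.2% of all probes were) and those of 2 were higher on all 3 (19.0%). The 10 brightest probes had a median log2 ratio of -0.15, whereas that of all probes was 0.0037. The ligand median was -0.052 without array 1, -0.28 with a normexp offset of 0 and -0.35 with the scanner software's ratios. The adjusted p-values of the 8 ligands that did not pass lay between 0.142 and 0.978.

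**Figure D1:**
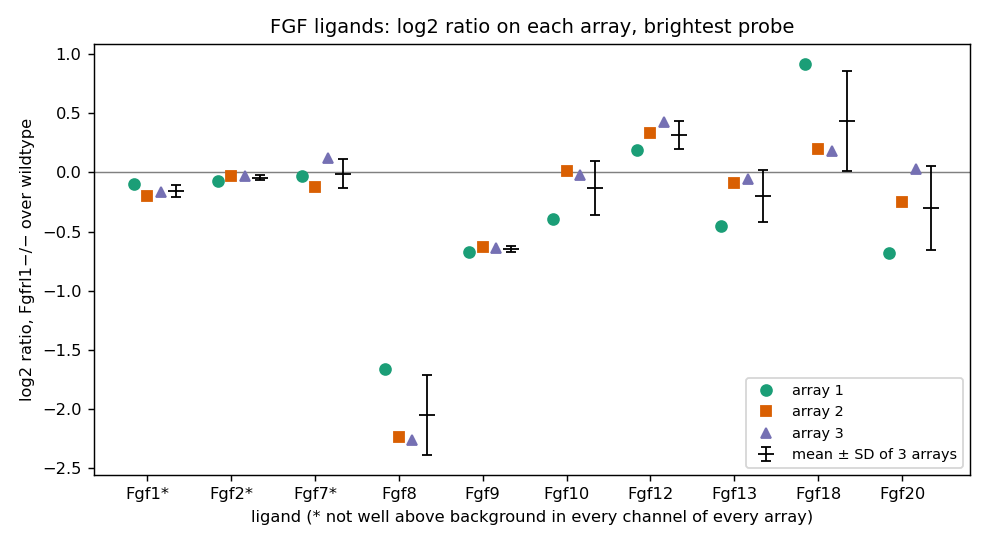
Log2 ratio of Fgfrl1-/- over wildtype (y axis) of the brightest probe of each ligand (x axis) on arrays 1 (circles), 2 (squares) and 3 (triangles), with the mean ± SD of the 3 arrays as a bar. The Fgf8 points lie between -2.26 and -1.66 and the Fgf9 points between -0.67 and -0.63. Fgf8, Fgf18, Fgf20, Fgf10 and Fgf13 have their array 1 point apart from the others.

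Fgf8 had the largest difference of the 10 ligands. Its brightest probe, which lies on mm8 at chr19:45790185-45790244, had normalized log2 signals of 8.26, 7.88 and 7.89 in the Fgfrl1-/- pools against 9.92, 10.12 and 10.15 in the wildtype pools of arrays 1, 2 and 3. Every Fgfrl1-/- pool lay below every wildtype pool, with a gap far wider than the spread within either genotype. The log2 ratios were -1.66, -2.23 and -2.26, with a mean of -2.05 ± 0.34 (SD, n = 3; 95% interval -2.39 to -1.71; adjusted p = 0.0259 by limma). This is a 4.14-fold difference, a level of 24.2% of wildtype, and the 7th lowest ratio among all probes. The Fgfrl1-/- signal was still well above background on all 3 arrays, at a median brightness of 268, 134 and 197 over a local background of 18, 29.5 and 26, so that this level was measured and not a floor.

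The Fgf8 probe is printed 10 times on each array, which shows the error within an array. On each array 8 of these spots were used, and all 8 were lower in the Fgfrl1-/- channel. They ranged from -1.81 to -1.47 on array 1, from -2.31 to -2.15 on array 2 and from -2.30 to -2.21 on array 3. Among these used spots, those of array 1 therefore did not overlap those of the other arrays. The scanner software flagged the same 2 spots as outliers on every array, and these had smaller differences, which reached -1.14 on array 1, -1.95 on array 2 and -2.02 on array 3. With them kept, the spots of array 1 spanned 0.67 log2 units. The mean ratio with them kept was -1.99 and still passed the test (adjusted p = 0.0277 by limma).

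**Figure D2:**
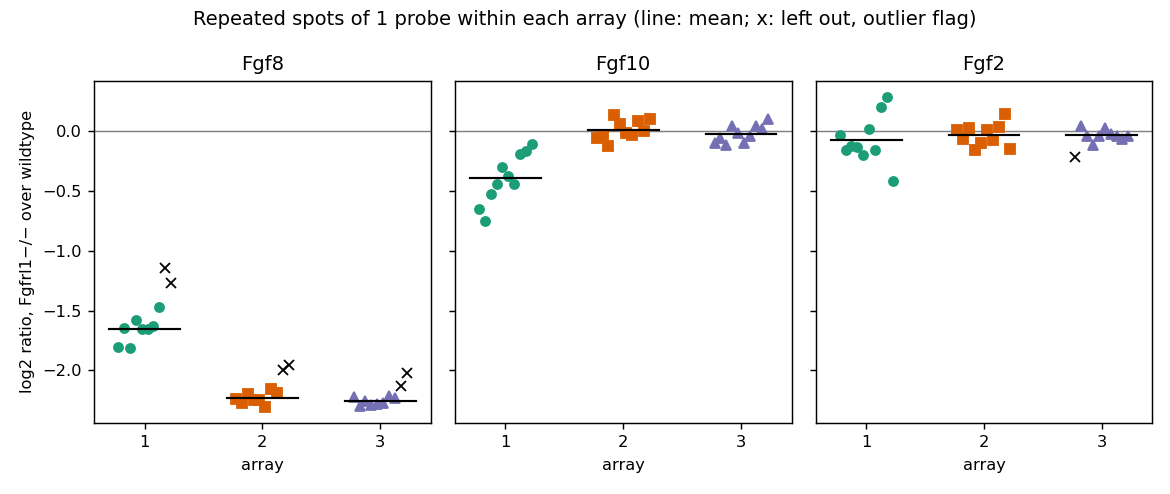
Log2 ratio of Fgfrl1-/- over wildtype (y axis) of each of the 10 spots of 1 probe of Fgf8, Fgf10 and Fgf2 on arrays 1, 2 and 3 (x axis), in the order in which they are printed, with lines at the mean and crosses for spots left out for an outlier flag. All kept Fgf8 spots lie below -1.4, and the Fgf10 spots of array 1 range from -0.75 to -0.10.

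The second Fgf8 probe, whose sequence is given above, had log2 ratios of -0.33, -0.38 and -0.46. It was lower on every array, and its pools did not overlap either, but its mean of -0.39 ± 0.066 (SD, n = 3) did not pass the test (adjusted p = 0.0881 by limma). Without array 1, where 4172 of all probes were called lower, its mean was -0.42 and passed (adjusted p = 0.00184 by limma). Per array, its ratio was 1.33, 1.85 and 1.80 log2 units closer to 0 than that of the first probe. This probe was dim: the Fgfrl1-/- channel read 33, 29 and 33 over a background of 17, 20 and 25 and was well above background on 1 array, and the wildtype channel read 76, 91 and 95 over 54, 46 and 53 and was so on all 3. Its ratio was -1.12 with an offset of 0 and -2.33 with the scanner software's own ratios, for which the first probe gave -2.39. The first probe gave -2.33 with an offset of 0. Without background subtraction the probes gave -2.16 and -0.72, and in the authors' table -2.13 and -0.70. The sizes thus lay close together with the scanner's ratios and apart under the other settings, while both probes were lower under all of these.

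The difference of Fgf8 was the same in direction and at least 1.22 log2 units under all 17 other ways of processing, and passed the test in 11 of them. It did not pass without array 2 (-1.96, adjusted p = 0.201 by limma) or without array 3 (-1.94, adjusted p = 0.427), where the fit rests on 2 arrays of different slides and calls 0 of all probes, and it did not pass when each slide counted once (-1.95, adjusted p = 0.345). Without array 1 it was -2.25 (adjusted p = 3.5e-09), a fit in which 4172 of all probes were called lower.

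The other gene names whose 3 ratios lay closest to those of Fgf8, by Euclidean distance over the 3 arrays among 22250 probes that were well above background in every wildtype channel and listed under a gene name other than their accession, were Cdh4 (distance 0.29), Egr1 (0.40), Lhx1 (0.47), Pcp4 (0.62) and Wnt4 (0.68). The mean ratio was -1.90 for Cdh4, a cadherin, and Egr1, an immediate early transcription factor, had -1.45, -2.34 and -2.59. Lhx1, a transcription factor of the renal vesicle, had -1.78, -1.93 and -1.92, and Wnt4, the signal that drives mesenchymal cells to form an epithelium, had -2.09, -2.34 and -2.77. These 5 genes were picked for this likeness, over 3 arrays only. Of 9 renal vesicle markers, 6 were called lower (0.398% of all probes were) and 0 higher (0.289%), with a median log2 ratio of -1.28. By their brightest probes these were Wnt4 (mean -2.40), Dkk1 (-2.25), Lhx1 (-1.72), Hes5 (-1.39), Dll1 (-1.08) and Bmp2 (-0.88). Their summed normalized signal was 2006 to 2976 in the Fgfrl1-/- pools and 6430 to 7445 in the wildtype pools, and none of the 9 was without signal in all channels. Cdh6, which was not called, had a mean ratio of 0.23. The paper names every marker of this list except Cdh6 among the genes reduced on these arrays. The calls and the median of the list are therefore not independent of its choice. The part of the lower renal vesicle signal in the Fgf8 difference was not tested.

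**Figure D3:**
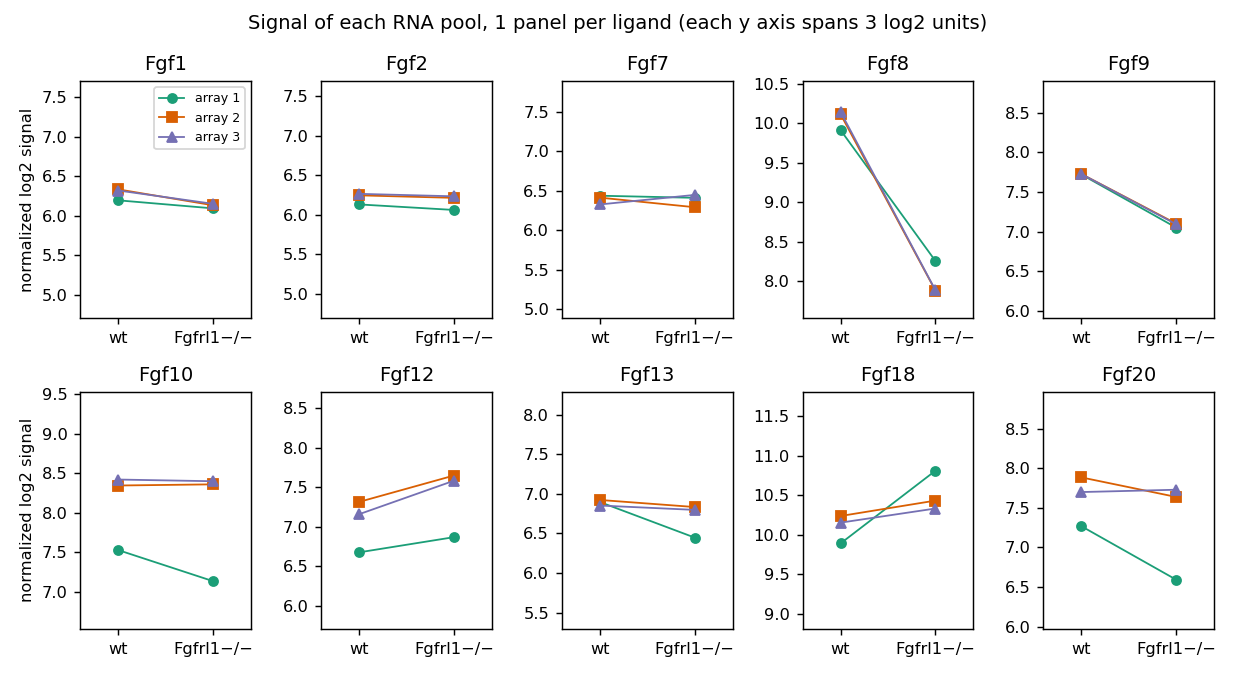
Normalized log2 signal (y axis) of the wildtype (wt) and the Fgfrl1-/- pool (x axis) of arrays 1, 2 and 3, joined by a line for each array, with 1 panel per ligand and 3 log2 units on each y axis. Fgf8 and Fgf9 fall on each array, whereas array 1 lies apart from the other arrays for Fgf10, Fgf12 and Fgf20.

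Fgf18, which belongs to the Fgf8 subfamily, had the highest mean ratio of the ligands, but the arrays did not agree on its size. The normalized log2 signals of its probe, at chr11:33017441-33017500, were 10.81, 10.43 and 10.33 in the Fgfrl1-/- pools and 9.89, 10.24 and 10.16 in the wildtype pools. All Fgfrl1-/- values lay above all wildtype values, but by a narrow margin on arrays 2 and 3. The log2 ratios were 0.92, 0.20 and 0.18, with a mean of 0.43 ± 0.42 (SD, n = 3; 95% interval 0.026 to 0.84), and did not pass the test (adjusted p = 0.287 by limma). Without array 1 the mean was 0.19. Of 10 stromal markers, 2 (Pdgfra and Col1a1) were called higher (0.289% of all probes were) and 0 lower (0.398%), with a median of 0.39. In the paper's qPCR at E12.5, the higher level of Col1a1 was not borne out. Tcf21 (-0.48), Pdgfrb (-0.25) and Tbx18 (-0.15) of this list had mean ratios below 0. The summed signal, which is weighted towards bright probes such as that of Col1a1, was 136610 to 169140 in the Fgfrl1-/- pools against 99888 to 101410 in the wildtype pools. How this relates to Fgf18 was not tested.

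Fgf9 showed the most even difference of all ligands that were well above background. The normalized log2 signals of its only probe, at chr14:57063697-57063756, were 7.05, 7.10 and 7.09 in the Fgfrl1-/- pools and 7.72, 7.73 and 7.73 in the wildtype pools. The pools of 1 genotype differed by less than 0.1, and the genotypes did not overlap. The log2 ratios were -0.67, -0.63 and -0.64, with a mean of -0.65 ± 0.024 (SD, n = 3; 95% interval -0.81 to -0.48; adjusted p = 0.0407 by limma), a 1.56-fold difference and a level of 63.9% of wildtype. On this array the median SD between arrays was 0.13 over all probes.

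The Fgf9 ratio lay between -0.94 and -0.56 under the 17 other ways of processing, all lower in Fgfrl1-/-, and passed the test in 8 of them. It did not pass without array 2 (-0.65, adjusted p = 0.348 by limma) or without array 3 (-0.65, adjusted p = 0.476), nor when dim probes were left out (-0.65, adjusted p = 0.0568). Of 10 markers of the ureteric bud, the source of Fgf9, 1 (Wnt11) was called lower (0.398% of all probes were) and 1 (Cdh16) higher (0.289%). On every array, 4 of the 10 were lower (19.2% of all probes were) and 6 higher (19.0%), with a median of 0.40. The summed signal, which is weighted towards bright probes, was 46506 to 59011 in the Fgfrl1-/- pools against 35541 to 42307 in the wildtype pools. Of these markers, 2 (Ret and Upk3a) had no channel well above background on any array. The part of these shifts in the Fgf9 difference was not tested.

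Fgf20, of the same subfamily as Fgf9, differed between the arrays. Its normalized log2 signals were 6.59, 7.64 and 7.73 in the Fgfrl1-/- pools and 7.27, 7.89 and 7.70 in the wildtype pools, so that the genotypes overlapped. Array by array, the log2 ratio was -0.68, -0.25 and 0.029. The mean was -0.30 ± 0.36 (SD, n = 3; 95% interval -0.65 to 0.055; adjusted p = 0.396 by limma), an interval that holds both the mean ratio of Fgf9 and 0. Array 1 alone had both the lowest signals and the largest difference. Of 7 cap mesenchyme markers, 2 (Cited1 and Gdnf) were called lower (0.398% of all probes were) and 0 higher (0.289%), with a median of -0.42. Their mean ratios were -0.83 for Gdnf, -0.78 for Cited1, -0.42 for Eya1, -0.42 for Crym, -0.30 for Meox1, -0.046 for Six2 and 0.054 for Osr1. The summed signal was 16489 to 20560 in the Fgfrl1-/- pools against 24247 to 25509 in the wildtype pools, and the part of these markers in the Fgf20 values was not tested. The paper names Gdnf among the genes reduced on these arrays, so that its call is not independent of the choice of list.

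The mesenchymal ligands Fgf7 and Fgf10 did not pass the test. Fgf10, at chr13:119910431-119910490, had normalized log2 signals of 7.14, 8.36 and 8.40 in the Fgfrl1-/- pools and 7.53, 8.35 and 8.42 in the wildtype pools. Both pools of array 1 were dimmer than those of the other arrays. This gave log2 ratios of -0.39, 0.015 and -0.021 (mean -0.13 ± 0.23, SD, n = 3; 95% interval -0.39 to 0.13; adjusted p = 0.623 by limma). The lower end of this interval lies above the mean ratio of Fgf9. On array 1, all 10 spots of the Fgf10 probe were below 0, from -0.75 to -0.10, whereas on array 2 they ranged from -0.12 to 0.14 and on array 3 from -0.12 to 0.10.

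Fgf7 had log2 ratios of -0.026, -0.12 and 0.12, without a common direction (mean -0.0090 ± 0.12, SD, n = 3; adjusted p = 0.978 by limma). On 2 arrays the Fgfrl1-/- spot, and on 2 the wildtype spot, was well above background. Its sign changed under 7 other ways of processing.

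The ratios of array 1 varied with the position of the spots. Among 15296 bright spots, those with a mean log2 signal over 8, the median log2 ratio was -0.11 in the first and 0.29 in the last of 5 bands of rows on array 1, against -0.046 and 0.053 on array 2 and -0.068 and 0.084 on array 3. The 10 Fgf10 spots, in rows 70 to 532, followed this trend, and the 2 flagged Fgf8 spots lay in rows 429 and 469. With a smooth trend over row and column removed, a step chosen after these spots were seen, the SD of the Fgf10 spots of array 1 fell from 0.21 to 0.097 and the array 1 ratio was -0.50. The ratios of Fgf8 (-2.01, adjusted p = 0.0174 by limma) and Fgf9 (-0.56, adjusted p = 0.0422) still passed the test, Fgf18 on array 1 was 0.68, and Fgf20 on array 1 was -0.72, so that the distance of array 1 from the other arrays was not removed with it.

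Fgf1 and Fgf2, which lack a classical signal peptide, were near background. The brighter Fgf1 probe, at chr18:38966508-38966567, had log2 ratios of -0.10, -0.20 and -0.17 (mean -0.16 ± 0.051, SD, n = 3; adjusted p = 0.363 by limma), with signals of 6.09, 6.13 and 6.15 in the Fgfrl1-/- pools, all below the 6.20, 6.33 and 6.32 of the wildtype pools. On 1 array the Fgfrl1-/- spot, and on 2 the wildtype spot, was well above background. Its mean ratio moved with the background correction, to -0.53 with an offset of 0, -0.31 without subtraction and -1.15 in the ratios of the scanner, and median centring gave -0.079. It passed the test under 0 of 16 alternatives. The second Fgf1 probe had -0.23, -0.19 and 0.086 (adjusted p = 0.648). The Fgf2 probe with 10 spots had -0.070, -0.032 and -0.031 (mean -0.044 ± 0.022, SD, n = 3; adjusted p = 0.829), and the second Fgf2 probe had a mean of -0.041 (adjusted p = 0.878). For Fgf2 these ratios compare spots that were well above background in no channel, so that no reliable level can be given. The scanner's less strict flag, for a signal significantly over background, was met by the probe with 10 spots in both channels of all 3 arrays.

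The intracellular Fgf homologous factors did not follow Fgf8. The brighter Fgf12 probe, at chr16:28075428-28075487, had normalized log2 signals of 6.87, 7.65 and 7.58 in the Fgfrl1-/- pools and 6.68, 7.31 and 7.16 in the wildtype pools. The pools overlapped between arrays, but on each array the Fgfrl1-/- pool was the higher one. The log2 ratios were 0.19, 0.33 and 0.42 (mean 0.32 ± 0.12, SD, n = 3; 95% interval 0.12 to 0.51; adjusted p = 0.142 by limma), and the second Fgf12 probe had 0.038, 0.24 and 0.23 (adjusted p = 0.383). Both passed the test without array 1 (0.38, adjusted p = 0.00362, and 0.24, adjusted p = 0.04), a fit in which 3494 of all 41174 probes were called higher.

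Fgf13 went the other way in its brightest probe, at chrX:55409372-55409431. Its log2 ratios were -0.45, -0.090 and -0.055 (mean -0.20 ± 0.22, SD, n = 3; adjusted p = 0.434 by limma), and all Fgfrl1-/- pools (6.45, 6.83 and 6.80) lay slightly below all wildtype pools (6.90, 6.92 and 6.85). The other 2 Fgf13 probes were well above background in 1 channel of 1 array only and had means of -0.12 and -0.0091. Of the 10 brightest ligand probes, those of Fgf1, Fgf8, Fgf9, Fgf13 and Fgf18 had pools that did not overlap between the genotypes, beside 13.9% of all probes. Of 9 neural markers, 0 were called in either direction, with a median of -0.097, and their summed signal was 1855 to 2306 in the Fgfrl1-/- pools against 2453 to 2790 in the wildtype pools. Of these markers, Elavl4 had a mean ratio of -0.71, and the other 8 lay between -0.13 and 0.10. Of the partners listed for the Fgf homologous factors, 0 were called in either direction, with a median of 0.059.

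**Figure D4:**
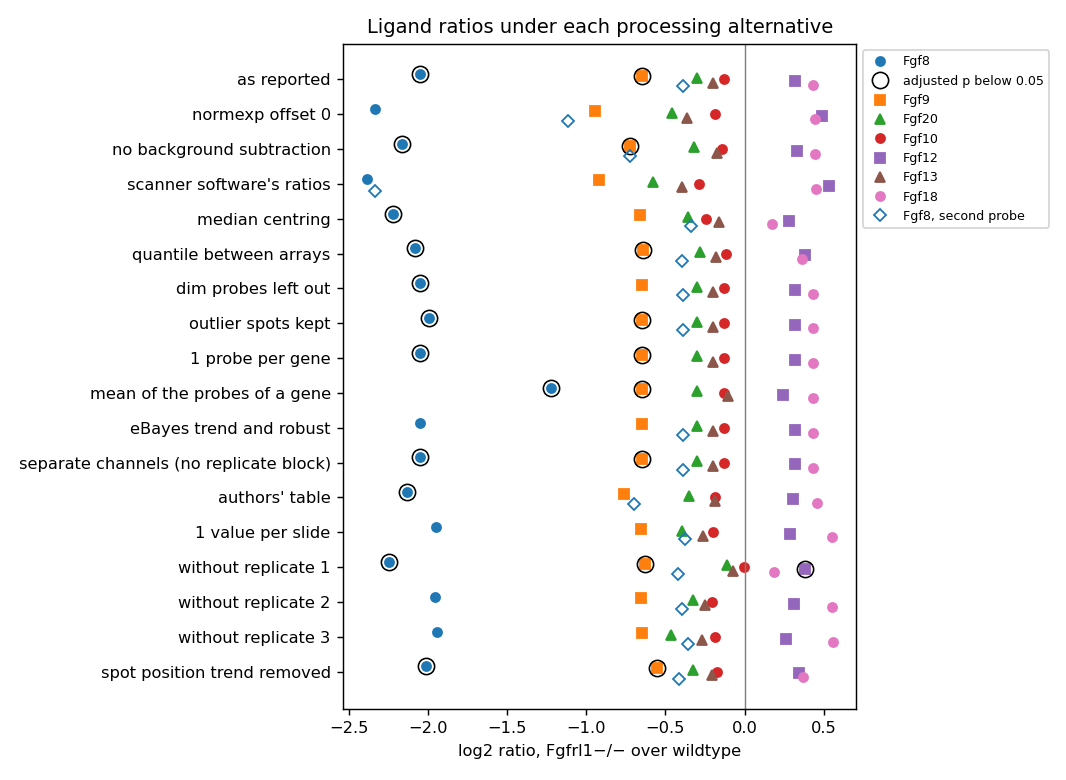
Mean log2 ratio of Fgfrl1-/- over wildtype (x axis) of the brightest probe of the 7 ligands well above background, and of the second Fgf8 probe, as reported and under each other way of processing (y axis), with black rings around values of the brightest probes whose adjusted p is below 0.05. Fgf8 stays below -1.2 and Fgf9 between -0.94 and -0.56, and the rings come and go with the setting.

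Among the 11 other Fgf family members on the array, 1 was called higher (0.289% of all probes were) and 0 lower (0.398%), and the median was -0.054. Only Fgf5 and Fgf11 of these were well above background with both dyes on every array, and 4 were so in no channel. The called gene was Fgf11, named here after its value was seen, which is a further intracellular Fgf homologous factor. In log2 signal the Fgfrl1-/- pools had a mean of 8.54 ± 0.049 and the wildtype pools of 7.91 ± 0.082 (SD, n = 3), without overlap. Its log2 ratios were 0.66, 0.65 and 0.60 (mean 0.64 ± 0.035, SD, n = 3; adjusted p = 0.0408 by limma). Under 16 other ways of processing that keep this probe, its ratio lay between 0.54 and 0.91 and passed the test in 7. A second, dimmer Fgf11 probe gave 0.44, 0.12 and -0.0078 (adjusted p = 0.482). Fgf17, of the Fgf8 subfamily, and Fgf16, of the Fgf9 subfamily, were well above background in no channel.

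Of the receptors, only Fgfrl1 was called. Fgfr1 (0.032), Fgfr2 (0.20), Fgfr3 (-0.13) and Fgfr4 (0.080) were well above background in all channels and had mean log2 ratios close to 0, with adjusted p-values from 0.405 to 0.942 by limma. Of the co-receptors of endocrine FGFs, Kl was well above background in 0 channels and Klb in 0 wildtype channels, so that their ratios give no level. Of 14 feedback regulators and ETS factors, genes linked to FGF signalling, 4 were called lower (0.398% of all probes were) and 0 higher (0.289%). Of the 14, 10 were lower on every array (19.2% of all probes were), and the median was -0.37. The called genes were Ism1 (listed on the array as 5430433G21Rik; -1.09 ± 0.073), Etv4 (-1.05 ± 0.27), Il17rd (-0.97 ± 0.090) and Spry1 (-0.94 ± 0.15), each with n = 3. Thus Fgf8 was the only ligand with a mean ratio below that of these 4 genes. The paper names the same 4 among the genes reduced on these arrays, so that their calls are not independent of the choice of list.

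**Figure D5:**
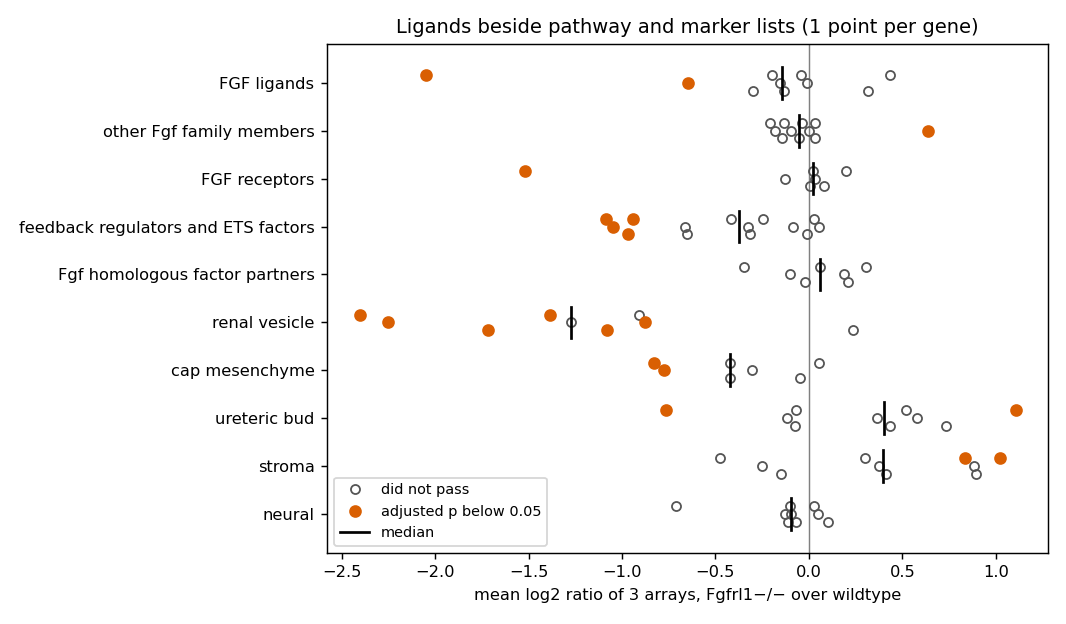
Mean log2 ratio of 3 arrays (x axis) of the brightest probe of each gene, grouped by list (y axis), with filled points for an adjusted p below 0.05, open points for the rest and a bar at the median of the list. Of the ligands only Fgf8 and Fgf9 are filled, and the renal vesicle markers have the lowest median, -1.28.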

How the data were processed

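RNA of 3 Fgfrl1-/- and 3 wildtype pools (600 ng each) was hybridized in pairs to 3 Agilent arrays. The authors deposited the scanner output of Agilent Feature Extraction (version 10 per the labels; per the file headers, version 9.5.3.1 read array 1, and both other arrays were read with 10.5.1.1). It holds the median intensity per spot and channel, with that of the background around it, log10 ratios of wildtype over Fgfrl1-/-, and flags for spots well above background or outlying, which are other values per the file headers. Log2 ratios per probe were deposited as well, made in steps not given in the sources used here. This table was found to be Fgfrl1-/- over wildtype, since it correlated with r = -0.70 to -0.72 with the scanner's opposite ratios. Its column medians lay between -0.018 and 0.003.

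From these intensities, log2 ratios were computed with limma 3.58.1 in R 4.3.3: normexp with an offset of 50, loess with control spots at weight 0, removal of spots with an outlier flag, and the mean of the spots of a probe. Of 45018 spots, 1639 were controls, and 41174 probes were tested with lmFit on the ratios of the 3 arrays, which pairs the pools of an array, and eBayes. The p-values were 2-sided, with Benjamini-Hochberg adjustment over all probes. They measure the spread between 3 pairs of pools, and precision is limited by this number of arrays. Log2 signals per pool were taken after loess and Aquantile scaling. Each ligand stands under its brightest probe on average, with the others beside it. All ligands were named. Genes of other lists were named where the adjusted p was below 0.05 at 2-fold or more, or, in lists of under 9 genes, whatever their value, except the partners of the Fgf homologous factors and the erythroid markers, given by their calls and median. Called genes of a list with 5 or fewer calls were also named, chosen after their values were seen. Other list members that these rules do not cover, such as Tcf21, Pdgfrb, Tbx18, Elavl4, Bmp2, Ret and Upk3a, were likewise named after their values were seen. The members and lists were chosen with earlier results of these data known. The fit was tested on simulated data with independent noise. These lacked the slide and position differences of the real arrays, so that this test does not cover them. Probe positions are those of the files on mm8. No annotation of mm8 was used. The values of some genes in these lists are not reported here.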

Additional observations from a re-analysis of the deposited data

How the results depend on the processing

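The 164 probes called lower and 119 called higher, and the 2 called ligand probes, moved with the processing, and the cause was not tested. With a normexp offset of 0 there were 0 lower and 0 higher (4852 at an unadjusted p below 0.05), 0 ligand probes, Fgf8 at -2.33 and Fgf9 at -0.94. The scanner software's ratios gave 0 and 0 (6118 unadjusted), 0 ligand probes, Fgf8 at -2.39 and Fgf9 at -0.92. Without background subtraction there were 117 lower and 72 higher. Median centring gave 91 lower and 2 higher, a far more one-sided split, 1 ligand probe and Fgf9 at -0.66. Quantile normalization gave 351 and 357. With dim probes left out there were 34 and 7, 1 ligand probe and Fgf9 at -0.65. One value per slide gave 0 and 0 (3450 unadjusted), 0 ligand probes, Fgf8 at -1.95 and Fgf9 at -0.65. With a trend and robust variances in eBayes there were 6 and 0 (5552 unadjusted), 0 ligand probes, Fgf8 at -2.05 and Fgf9 at -0.65. The authors' table gave 32 and 4, 1 ligand probe (Fgf8) and Fgf9 at -0.76. A fit of separate channels (no replicate block), in which an intraspot correlation of 0.452 links the pools of an array in place of the paired ratio, gave 237 lower and 226 higher, and Fgf8 and Fgf9 still passed. Leaving out 1 array gave 0 to 4172 lower, 0 to 3494 higher and 0 to 5 ligand probes, with Fgf8 between -2.25 and -1.94, Fgf9 between -0.65 and -0.63, and Fgf12 at 0.38 without array 1. The counts of 0 stood without array 2 (3712 unadjusted) and without array 3 (3141 unadjusted). Only Fgf7 and Fgf2 changed sign: Fgf7 was 0.024 without background subtraction, 0.53 with the scanner's ratios, 0.10 with median centring, 9.74e-05 with quantile normalization, 0.013 in the authors' table, -0.074 to 0.047 with 1 array left out (above 0 without array 2) and 0.072 with the position trend removed, and Fgf2 was 0.022 with median centring. The slide as a random block was not run to a value, since it could not be fitted on 3 arrays.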

Other observations

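Macrophage markers were not part of any ligand comparison. All 5 of them were higher in the Fgfrl1-/- channel on every array (19.0% of all probes were), with a median log2 ratio of 0.53, but 0 passed the test by limma. The mean ratios were 0.71 for Lyz2, 0.54 for Fcgr1, 0.53 for Csf1r, 0.50 for Aif1 and 0.15 for Cx3cr1.

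Of 6 endothelial markers 0 were called, with a median of -0.0051 and means from -0.10 for Emcn, over Tek (-0.085), Cdh5 (-0.053), Kdr (0.043) and Tie1 (0.14), to 0.17 for Pecam1. Of 5 skeletal muscle markers 0 were called, with Tnnt1 at 0.54, Myog at 0.31, Ttn at 0.055, Actc1 at 0.036 and Myod1 at -0.028. Of the erythroid markers 0 were called, with a median of -0.048. Of 4 steroidogenic markers 0 were called, with Nr5a1 at -0.17, Star at -0.0057, Hsd3b1 at -0.010 and Cyp11a1, which was well above background in 0 channels.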
